A study of Mus musculus with 6 samples.

Results

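The 9 genes described here mark the gamma delta branch of the T cell lineage, and all of them were found among the 55536 genes of the count table by symbol. They are the constant genes of the gamma chain (Tcrg-C1, Tcrg-C2 and Tcrg-C4), the constant gene and 1 variable segment of the delta chain (Trdc and Trdv4), the transcription factors Sox13 and Maf, the receptor Cd163l1 and the kinase Blk. Messenger RNA was counted in 6 libraries of thymocytes from untreated mice, 1 library per mouse. The groups are 3 mice labelled Il3ra-/-, a genotype deficient in the alpha chain of the interleukin-3 receptor, and 3 wildtype mice labelled Il3ra+/+. The labels state neither age nor strain, and they name no other allele or agent.

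Gamma delta T cells arise in the thymus beside the far more abundant alpha beta T cells, from double-negative thymocytes that carry neither CD4 nor CD8. Their antigen receptor pairs a gamma chain with a delta chain, each built from variable (V), joining (J) and constant (C) segments. The delta genes lie inside the alpha chain locus and are excised when an alpha chain is assembled, and gamma and delta segments can also be transcribed in double-negative cells that later become alpha beta cells. Sox13, Maf, Blk and Cd163l1 are known from the gamma delta cells of mice that are programmed to make interleukin-17.

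The gamma constant genes are copies of one another, so their sequences are shown first, because they bear on which gene a read can be assigned to. The lines give the first 120 bases of the first coding exon (330 bases) in GENCODE M21 transcripts on GRCm38, 5′ to 3′, with capitals at bases that differ from Tcrg-C1. They lie at chr13:19214103-19214222 (plus strand), chr13:19307432-19307551 (minus), chr13:19260885-19261004 (plus) and chr13:19344558-19344677 (plus).
Tcrg-C1: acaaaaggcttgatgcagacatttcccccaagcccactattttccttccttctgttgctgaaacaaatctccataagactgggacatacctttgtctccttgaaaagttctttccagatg
Tcrg-C2: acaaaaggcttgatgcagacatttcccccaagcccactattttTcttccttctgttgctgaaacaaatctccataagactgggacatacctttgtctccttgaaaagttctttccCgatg
Tcrg-C3: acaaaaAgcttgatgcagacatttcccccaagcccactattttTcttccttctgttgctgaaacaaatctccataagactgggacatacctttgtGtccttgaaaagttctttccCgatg
Tcrg-C4: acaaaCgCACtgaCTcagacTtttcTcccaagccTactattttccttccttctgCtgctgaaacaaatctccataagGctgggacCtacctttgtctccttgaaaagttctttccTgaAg
Over the whole exon Tcrg-C2 was 97.3% identical to Tcrg-C1, Tcrg-C3 96.1% and Tcrg-C4 82.1%. Of the 875 windows of 50 bases in the Tcrg-C1 transcript, 157 occurred unchanged in Tcrg-C2, 154 in Tcrg-C3 and 0 in Tcrg-C4. With windows of 100 bases, 5 of 825 occurred in Tcrg-C2, 23 in Tcrg-C3 and 0 in Tcrg-C4. Counts of Tcrg-C1, Tcrg-C2 and Tcrg-C3 may therefore share or lose some reads, since no label states how reads matching several places were handled, whereas Tcrg-C4 shares no such window with the other copies.

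The V segments with the widest spread between libraries, Trdv4 and Tcrg-V6, are shown by the last 60 coding bases of the germline segment, the end that is joined in rearrangement. Capitals mark the cysteine codon that follows a tyrosine codon, a conserved feature of V segments. Trdv4 lies at chr14:54075456-54075515 (plus) and Tcrg-V6 at chr13:19190870-19190929 (plus).
Trdv4: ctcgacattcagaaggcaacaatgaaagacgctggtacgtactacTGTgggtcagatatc
Tcrg-V6: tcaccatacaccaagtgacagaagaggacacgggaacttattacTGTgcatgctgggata
Neither transcript shared a window of 50 bases with a T cell receptor transcript of another gene (0 of 395 windows for Trdv4 and 0 of 327 for Tcrg-V6). The delta V segment Trdv4 and the gamma V segment Tcrg-V6 are known to pair in a gamma delta subset of mice that is made in fetal life and produces interleukin-17.

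The libraries held 59135254 to 82684219 counts in the labelled knockout and 55747682 to 66534218 in wildtype. Il3ra itself had 481, 673 and 514 counts in the labelled knockout libraries and 465, 376 and 399 in wildtype, a fold of 1.14 (edgeR adjusted p = 0.585), so whole-gene counts do not check the genotype labels, and directions below are those of the libraries labelled knockout. Replicate 1 of each genotype stood apart by Xist, with 128236 and 88078 counts against 8 to 57 in the other 4 libraries. All 10 thymocyte identity genes (such as Cd3e, Trac and Rag1) had at least 230 CPM in every library. CPM are counts scaled to a common library total, after TMM scaling has adjusted the totals for composition, and errors are SD over 3 libraries.

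All 9 genes were fitted higher in the labelled knockout, and none passed the test over all genes. Of 18690 genes tested, 17 (0.091%) had an adjusted p under 0.05 in the quasi-likelihood test of edgeR (Benjamini-Hochberg adjusted over all of them), and 0 of the 9 genes did (adjusted p = 0.165 to 0.487). At an unadjusted p under 0.05, 8 of the 9 genes were higher, where 8.01% of all tested genes were higher and 6.6% lower. DESeq2 called 1 of the 9 genes and 581 genes in all, and limma-voom called 0 of the 9 and 18 in all. In 7 of the 9 genes all labelled knockout libraries lay above all wildtype libraries, where 10.9% of tested genes lay so and 9.38% lay the opposite way. The median log2 fold change was 0.49 over the 9 genes and 0.01 over all tested genes. The 9 genes are not independent, because the gamma constant genes lie in 1 locus and share sequence, and all 9 can report on 1 small population of cells. In bulk RNA, more cells of a type and more RNA per cell cannot be told apart.

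**Figure D1:**
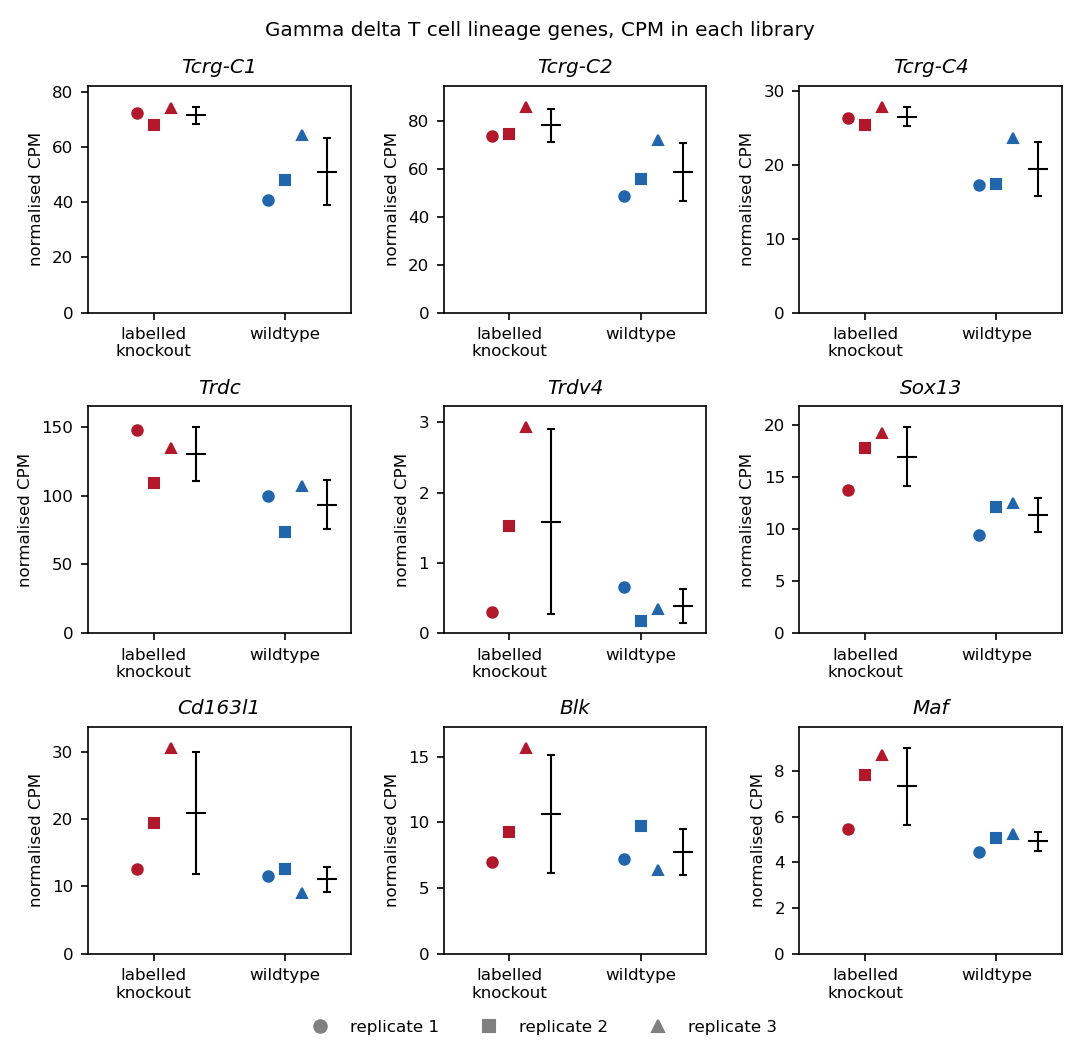
Normalised CPM of each of the 9 genes in each library, labelled knockout left and wildtype right, with replicate number as the marker shape and mean ± SD (n = 3) beside the points. The groups do not overlap in 7 panels and overlap in Trdv4 and Blk, where labelled knockout replicate 3 is the highest library.

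Transcripts of Tcrg-C1, Tcrg-C2 and Tcrg-C4 were fitted about 1.4-fold higher in the labelled knockout, and each varied less among those libraries than among wildtype ones. Tcrg-C1 (ENSMUSG00000076749, chr13:19214103-19217024) had 72.3, 67.9 and 74.1 CPM in labelled knockout replicates 1 to 3, against 40.8, 47.9 and 64.4 CPM in wildtype. Tcrg-C2 (ENSMUSG00000076752, chr13:19304649-19307551) had 73.9, 74.9 and 86.2 CPM against 48.7, 55.8 and 72.4 CPM. Tcrg-C4 (ENSMUSG00000076757, chr13:19344558-19352756) had 26.3, 25.4 and 27.9 CPM against 17.3, 17.4 and 23.6 CPM. Wildtype replicate 3 was the highest wildtype library for all 3 genes and came close to the labelled knockout: the lowest labelled knockout library exceeded it by factors of 1.06, 1.02 and 1.08. Without replicate 1 of each genotype the log2 fold changes were 0.34, 0.33 and 0.38, with no call.

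The folds were 1.40 for Tcrg-C1 (95% interval 1.12 to 1.75), 1.33 for Tcrg-C2 (1.08 to 1.64) and 1.36 for Tcrg-C4 (1.11 to 1.67), with edgeR adjusted p of 0.197, 0.228 and 0.186. Tcrg-C4, which has no shared 50-base window, had nearly the same fold as the copies that do. The mix of copies varied little: Tcrg-C1 made up 37.7% to 40.0% of gamma constant counts in labelled knockout libraries and 36.6% to 38.8% in wildtype, and Tcrg-C4 made up 14.2% to 14.6% and 13.7% to 15.6%. Tcrg-C3, the remaining gamma constant gene, had a fold of 1.39 (adjusted p = 0.257 by edgeR), with 8.08, 6.10 and 8.11 CPM in the labelled knockout and 4.53, 5.90 and 5.58 CPM in wildtype.

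The delta constant gene, Trdc, was the most counted of the 9 genes. Trdc (ENSMUSG00000104876, chr14:54142851-54148868) had 148, 109 and 135 CPM in labelled knockout libraries and 99.6, 73.3 and 107 CPM in wildtype. The means were 130 ± 19.6 and 93.4 ± 17.9 CPM (SD, n = 3 each), a fold of 1.40 (95% interval 1.11 to 1.76; edgeR adjusted p = 0.208). The groups were separated by labelled knockout replicate 2 and wildtype replicate 3, which differed by a factor of 1.02. The antisense models Trdv5 and Gm43434 overlap exons of Trdc. Trdv5, an inverted V segment behind Trdc, had 235 to 254 counts in labelled knockout libraries and 133 to 173 in wildtype, and with the counting strand not given its reads cannot be told apart from those of Trdc.

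Because the delta genes are lost when the alpha chain is assembled, Trdc was also set against Trac, the alpha constant gene, as a ratio of raw counts that no library scaling changes. Trdc had 468, 278 and 384 counts per 1000 Trac counts in labelled knockout libraries, and 213, 157 and 227 in wildtype. The means were 377 ± 94.9 and 199 ± 37.2 (SD, n = 3 each), and all labelled knockout libraries lay above all wildtype libraries (two-sided exact permutation p = 0.1, the smallest that 3 against 3 libraries can give). Both parts of the ratio differed, since Trac had 316, 393 and 351 CPM in the labelled knockout and 467, 468 and 474 CPM in wildtype (fold 0.752; edgeR adjusted p = 0.154). Against Trbc1 and Trbc2, the beta constant genes, the groups overlapped: Trdc had 42.7, 29.3 and 34.3 counts per 1000 in the labelled knockout and 23.3, 18.8 and 29.7 in wildtype (exact permutation p = 0.2). The folds of Trbc1 and Trbc2 were 0.963 and 0.929 (edgeR adjusted p = 0.870 and 0.700).

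**Figure D2:**
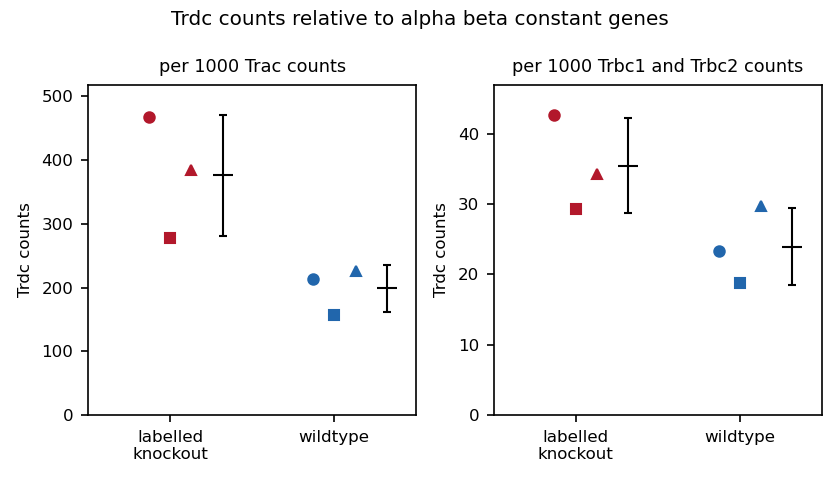
Trdc counts per 1000 Trac counts (left) and per 1000 counts of Trbc1 and Trbc2 together (right) in each library, labelled knockout left of wildtype, with mean ± SD (n = 3). The groups are apart in the left panel (lowest labelled knockout 278, highest wildtype 227) and overlap in the right one.

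Trdv4 had the largest fold and the largest spread of the 9 genes. It (ENSMUSG00000076867, chr14:54074905-54075515) gave 18, 128 and 204 reads in replicates 1 to 3 of the labelled knockout, against 39, 10 and 22 in wildtype, or 0.297, 1.53 and 2.93 CPM against 0.654, 0.173 and 0.337 CPM. Labelled knockout replicate 1 lay below wildtype replicates 1 and 3, and replicates 2 and 3 lay above all wildtype libraries. The fold of 4.08 had a 95% interval of 1.09 to 15.3 (edgeR adjusted p = 0.315). Leaving out replicate 3 of the labelled knockout gave a log2 fold change of 1.25, against 2.03 with all libraries. Without replicate 1 of each genotype it was 3.10 (edgeR adjusted p = 0.0180), a setting in which 762 of 19127 tested genes passed.

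Tcrg-V6 had a like pattern at a similarly low level. It gave 20, 56 and 78 reads in replicates 1 to 3 of the labelled knockout, against 20, 3 and 10 in wildtype, so labelled knockout replicate 1 and wildtype replicate 1 had equal counts. Its fold was 3.90 (edgeR adjusted p = 0.203), and it passed the filter on low counts mainly through the labelled knockout libraries. Tcrg-V5, which is used in skin-homing gamma delta cells of fetal mice, was below the filter with 4, 20 and 19 counts against 4, 1 and 6.

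The remaining gamma and delta segments described the locus as a whole. Of 36 annotated gamma, delta and shared alpha-delta segments, 30 passed the filter and 0 passed the adjusted threshold by edgeR (13 had an unadjusted p under 0.05, all higher). Of all tested genes, 8.01% were higher at that unadjusted p and 6.6% lower. All 13 tested gamma segments were fitted higher, with a median log2 fold change of 0.49. Of these 13, 9 lay higher without overlap, the gamma constant genes included, where 10.9% of all tested genes lay so. Segments of 1 locus are not independent. Among the V segments of the gamma chain, Trgv2 had 15.2, 14.1 and 16.9 CPM in labelled knockout libraries and 9.53, 10.7 and 12.7 CPM in wildtype (fold 1.40; edgeR adjusted p = 0.181). Tcrg-V4 had 5.81, 6.39 and 6.21 CPM against 3.25, 3.89 and 4.73 CPM (fold 1.55; edgeR adjusted p = 0.178). The lowest gamma fold was that of Tcrg-V7, at 1.04. Unlike Trdv4 and Tcrg-V6, the abundant V segments were of similar level in all 3 labelled knockout libraries.

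Of the 7 tested delta segments 6 were fitted higher, and Trdj2 was fitted lower (fold 0.855). The 10 V segments that can serve either an alpha or a delta chain split into 4 fitted higher and 6 fitted lower, with a median log2 fold change of -0.08. In these 10 segments most transcripts of a thymus may belong to alpha chains, so the counts do not separate the 2 uses.

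**Figure D3:**
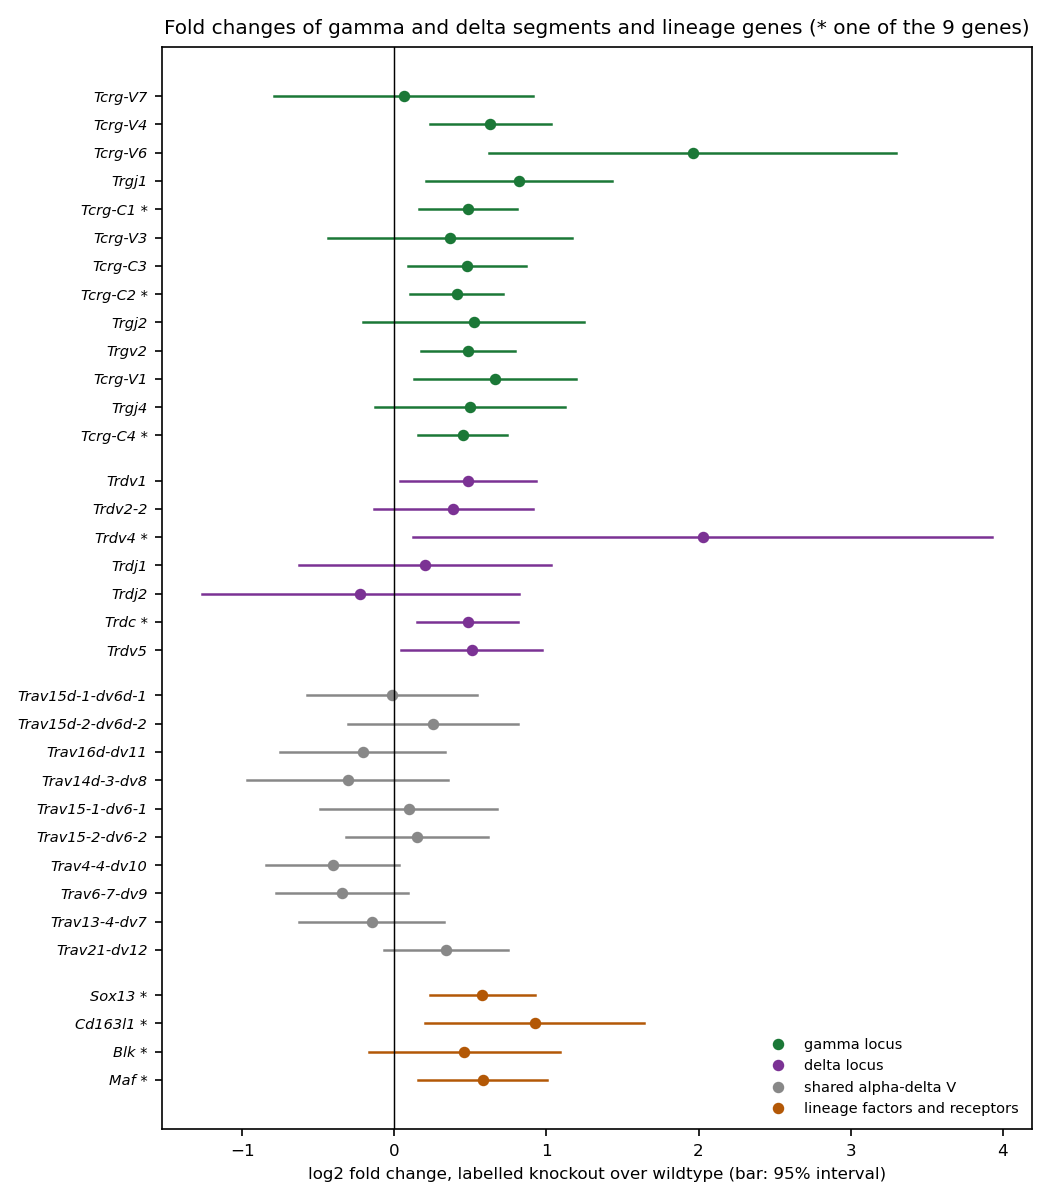
Log2 fold change of labelled knockout over wildtype with its 95% interval (edgeR) for the 30 tested gamma, delta and shared segments and the 4 lineage genes, grouped by locus. The gamma segments all lie right of 0, the shared alpha-delta segments lie on both sides, and Trdv4 and Tcrg-V6 have the largest folds and the widest intervals.

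The transcription factors Sox13 and Maf were each about 1.5-fold more abundant in the labelled knockout. Sox13, a factor of the SOX group D family expressed early in the gamma delta lineage (ENSMUSG00000070643, chr1:133382303-133424377), had 13.7, 17.8 and 19.2 CPM in labelled knockout libraries and 9.43, 12.1 and 12.5 CPM in wildtype. Its fold of 1.49 (95% interval 1.17 to 1.90) had the smallest p of the 9 genes (unadjusted 0.00368, edgeR adjusted p = 0.165). DESeq2 called Sox13 (adjusted p = 0.0229) as 1 of 581 genes called by that test. Maf, a basic leucine zipper factor that gamma delta cells of mice need for interleukin-17 production (ENSMUSG00000055435, chr8:115682942-115707794), had 5.47, 7.85 and 8.74 CPM against 4.44, 5.05 and 5.27 CPM. Its fold was 1.49 (95% interval 1.12 to 2.002; edgeR adjusted p = 0.222). Among the labelled knockout libraries both genes were lowest in replicate 1. Without replicate 1 of each genotype both passed (edgeR adjusted p = 0.0376 and 0.0487), where 762 of 19127 tested genes passed.

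The families of both factors were fitted in both directions. Of the 8 tested genes of the SOX group D and MAF families, Sox13 and Maf included, 4 were fitted higher and 4 lower (median log2 fold change 0.02).

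Cd163l1 and Blk also depended on single libraries. Cd163l1, a scavenger receptor with cysteine-rich domains carried by gamma delta T cells (ENSMUSG00000025461, chr7:140218267-140231145), had 12.6, 19.4 and 30.6 CPM in labelled knockout replicates 1 to 3 and 11.6, 12.5 and 8.99 CPM in wildtype. Labelled knockout replicate 1 exceeded the highest wildtype library by a factor of only 1.01. The fold was 1.89 (95% interval 1.15 to 3.12; edgeR adjusted p = 0.253). The log2 fold change of 0.92 became 0.54 without labelled knockout replicate 3 and 1.18 without labelled knockout replicate 1, where the gene passed (edgeR adjusted p = 0.0474).

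Blk, a Src family kinase of B cells and of some gamma delta cells (ENSMUSG00000014453, chr14:63372836-63417037), had 7.004, 9.26 and 15.7 CPM in labelled knockout libraries and 7.21, 9.69 and 6.36 CPM in wildtype. Only labelled knockout replicate 3 lay above all wildtype libraries. The fold of 1.38 had a 95% interval of 0.890 to 2.13 (edgeR adjusted p = 0.487), and leaving that library out gave a log2 fold change of 0.07. Among the 8 Src family kinases, Blk included, 4 were fitted higher and 4 lower. Fgr, a kinase of myeloid cells, had 21.2, 18.1 and 25.7 CPM against 16.8, 12.8 and 11.8 CPM (fold 1.57; edgeR adjusted p = 0.151). Lck, the main kinase of T cell receptor signals, had a fold of 0.825 (edgeR adjusted p = 0.290).

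Per kilobase of exon, the 9 genes spanned a wide range of levels, with Tcrg-C2 at the top and Maf at the bottom in both genotypes. In the labelled knockout Tcrg-C2 and Tcrg-C1 averaged 85.7 and 77.3 CPM per kilobase, Trdc 33.8 and Tcrg-C4 27.0. Cd163l1 averaged 5.41, Blk 3.95, Sox13 3.93, Trdv4 3.57 and Maf 0.892 CPM per kilobase. In wildtype Tcrg-C2 and Tcrg-C1 averaged 64.5 and 55.2 CPM per kilobase, Trdc 24.2 and Tcrg-C4 19.7, followed by Blk at 2.87, Cd163l1 at 2.86, Sox13 at 2.63, Trdv4 at 0.874 and Maf at 0.597. Within wildtype the libraries of Tcrg-C2 and Tcrg-C1 overlapped, and so did those of Trdc and Tcrg-C4 and those of Blk, Cd163l1 and Sox13. Trdv4 spanned 0.390 to 1.47 CPM per kilobase there, which takes in the range of Maf. In the labelled knockout Tcrg-C2 and Tcrg-C1 did not overlap, while Trdc overlapped Tcrg-C4, the libraries of Cd163l1, Blk, Sox13 and Trdv4 overlapped one another, and Trdv4 at 0.670 to 6.60 CPM per kilobase overlapped Maf.

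Labelled knockout replicate 3 was the highest library of that genotype for 8 of the 9 genes, and replicate 1 for Trdc. Trdv4, Sox13, Cd163l1, Blk, Maf and Tcrg-C2 had their lowest labelled knockout level in replicate 1 and their highest in replicate 3, which is 6 of 9 genes, where 25.0% of all tested genes had this order. Tcrg-C1, Tcrg-C4 and Trdc were lowest in labelled knockout replicate 2.

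**Figure D4:**
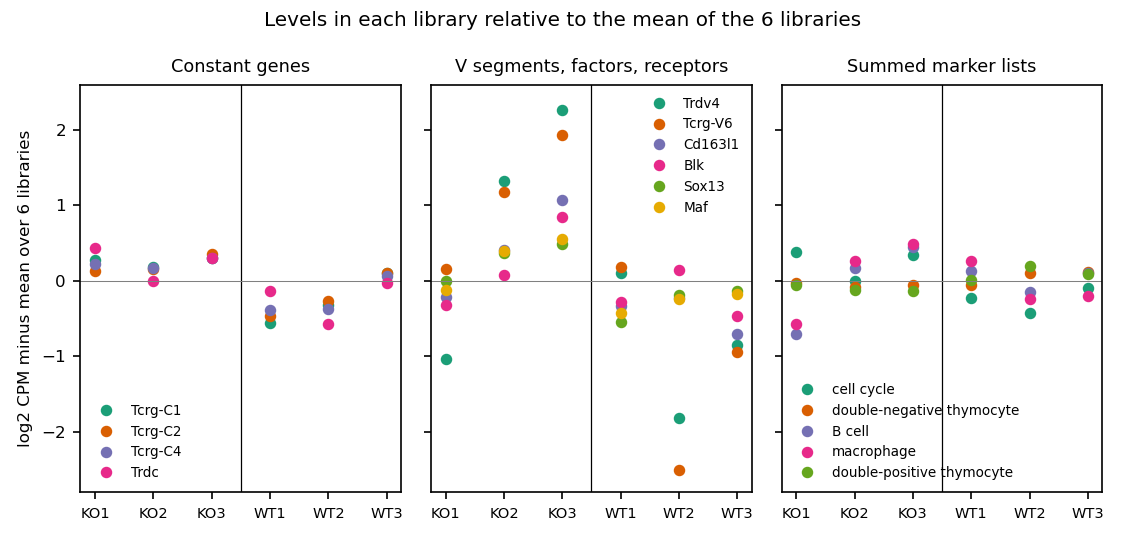
Log2 CPM of single genes (left and middle panels) and of summed marker lists (right panel) in each library, relative to the mean of the 6 libraries, with labelled knockout (KO) left of the line and wildtype (WT) right of it. Trdv4, Tcrg-V6, Cd163l1 and Blk are highest in labelled knockout replicate 3, as the B cell and macrophage sums are, and Trdc is highest in labelled knockout replicate 1.

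Markers of other cells varied in the same libraries. The summed level of the 10 B cell markers was 33.0, 60.7 and 73.7 CPM in labelled knockout replicates 1 to 3 and 59.3, 48.9 and 57.9 CPM in wildtype, and that of the 10 macrophage markers was 49.1, 88.2 and 102 CPM against 88.1, 62.0 and 63.6 CPM. Both sums were lowest and highest in the same labelled knockout libraries as Blk, Maf and Cd163l1, and no marker of these lists was at 0 in all libraries. Of the B cell markers 6 of 10 were fitted higher and of the macrophage markers 9 of 10, none past the adjusted threshold by edgeR and none at an unadjusted p under 0.05. Their part in the levels of Blk, Maf and Cd163l1 was not tested. Natural killer and innate-like T cell markers, which some gamma delta cells share, summed to 39.6, 70.6 and 77.9 CPM against 71.4, 57.4 and 51.9 CPM (7 of 9 tested fitted higher). Dendritic cell markers summed to 602, 757 and 697 CPM against 844, 815 and 917 CPM, mostly from Ccr9, which thymocytes also express. Ccr9 itself had 570, 692 and 590 CPM against 800, 768 and 872 CPM, so this sum mainly follows Ccr9. Of the 10 dendritic cell markers 6 were fitted higher and 4 lower, Ccr9 among the lower (median log2 fold change 0.12). None passed the adjusted threshold by edgeR. Irf8, the next most counted of them, had 17.2, 31.6 and 53.9 CPM against 22.7, 22.3 and 23.0 CPM.

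Markers of dividing cells and of thymocyte stages also differed in level between the genotypes' libraries. The 22 cell cycle genes were all fitted higher in the labelled knockout (median log2 fold change 0.50). Of all tested genes, 10.9% lay higher without overlap between genotypes, as did 21 of these 22 genes. Their sum was 6170, 4704 and 5993 CPM in labelled knockout replicates 1 to 3 and 4046, 3525 and 4421 CPM in wildtype, so it was highest in replicate 1, then 3, then 2 in the labelled knockout, as Trdc was. Of the 13 tested double-negative markers 10 were fitted higher (median log2 fold change 0.37) and 0 did not overlap. Il2ra, the CD25 gene of early thymocytes, had 68.2, 82.9 and 73.3 CPM in the labelled knockout and 46.5, 58.3 and 68.7 CPM in wildtype (fold 1.29; edgeR adjusted p = 0.257). Kit, the stem cell factor receptor, had a fold of 1.52 (edgeR adjusted p = 0.222). Of the 12 double-positive markers 11 were fitted lower (median log2 fold change -0.24), among them Cd8b1 (fold 0.811) and Rag1 (fold 0.817). None of these markers passed the adjusted threshold by edgeR. At an unadjusted p under 0.05, all 22 cell cycle genes were higher, 3 of 13 double-negative markers were higher and 1 lower, and 7 of 12 double-positive markers were lower, where 8.01% of all tested genes were higher and 6.6% lower. What part the mix of thymocyte stages and dividing cells has in the levels of the gamma and delta genes was not tested. Thymic epithelial markers summed to at most 13.01 CPM in the labelled knockout and 11.3 CPM in wildtype.

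Among genes with cysteine-rich scavenger domains, Cd163l1 included, 4 of 8 tested were fitted higher and 4 lower (median log2 fold change 0.23). None passed the adjusted threshold by edgeR. At an unadjusted p under 0.05, 3 of 8 were higher and 1 lower, where 8.01% of all tested genes were higher and 6.6% lower. Cd163, the haemoglobin scavenger receptor of macrophages, had 2.69, 4.92 and 5.06 CPM in the labelled knockout and 2.52, 1.70 and 1.87 CPM in wildtype (fold 2.09; edgeR adjusted p = 0.151). Cd5, which dampens receptor signals in thymocytes, had a fold of 0.794 (edgeR adjusted p = 0.193), and its groups did not overlap either.

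Genes of gamma delta fate choice were fitted in both directions. The list of 20 holds factors such as Id3, Egr3 and Etv5 that act downstream of a strong receptor signal, 9 of which were fitted higher and 11 lower (median log2 fold change -0.05), with 0 past the adjusted threshold by edgeR and 2 at an unadjusted p under 0.05. Both of these were lower, where 6.6% of all tested genes were. Nr4a1, induced by receptor signals, had 67.1, 92.2 and 72.8 CPM in the labelled knockout and 98.8, 112 and 122 CPM in wildtype (fold 0.697; edgeR adjusted p = 0.151). Zbtb7b, a regulator of CD4 and of some gamma delta cells, had a fold of 0.710 (edgeR adjusted p = 0.151). Id3, which restrains E proteins once gamma delta cells are specified, had a fold of 1.01, and Etv5 had a fold of 1.11.

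Genes of interleukin-17 programmed gamma delta cells were low and depended on single libraries. Of 16 genes 14 were tested, 9 fitted higher and 5 lower (median log2 fold change 0.29), and 0 passed the adjusted threshold by edgeR. At an unadjusted p under 0.05, 1 of 14 was higher and 2 lower, where 8.01% of all tested genes were higher and 6.6% lower. Il23r, a chain of the interleukin-23 receptor, gave 14, 49 and 104 reads in replicates 1 to 3 of the labelled knockout, against 22, 31 and 19 in wildtype. Ccr2, a chemokine receptor also of monocytes, had 5.39, 8.88 and 16.2 CPM against 6.54, 4.71 and 4.86 CPM (fold 1.89; edgeR adjusted p = 0.312). Labelled knockout replicate 3 was again the highest library for both. The scavenger receptor gene 5830411N06Rik, a relative of Cd163l1, had 30.1, 34.4 and 47.2 CPM against 17.5, 35.2 and 24.9 CPM (fold 1.44; edgeR adjusted p = 0.427).

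The cytokine genes themselves were hardly detected. Il17a had 0, 2 and 0 counts in labelled knockout libraries and 0 in each wildtype library, where a count of 0 allows up to 3 counts, or 0.0451 to 0.0538 CPM. Il17f had 11, 13 and 6 counts against 5, 4 and 3.

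Genes of interferon-gamma programmed gamma delta cells gave 10 of 14 fitted higher (median log2 fold change 0.20), with 0 past the adjusted threshold by edgeR. At an unadjusted p under 0.05, 2 of 14 were higher and 1 lower, where 8.01% of all tested genes were higher and 6.6% lower. Gzma, a granule protease of killer cells, had 44.6, 43.4 and 59.3 CPM in the labelled knockout and 27.9, 27.1 and 35.9 CPM in wildtype (fold 1.62; edgeR adjusted p = 0.138). Cd27, a costimulatory receptor found on most thymocytes, had a fold of 0.840 (edgeR adjusted p = 0.287). Tbx21 and Eomes, the T-box factors of this program, had folds of 1.22 and 1.25 and overlapped between genotypes.

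The signal chains that a gamma delta receptor shares with the alpha beta receptor were not fitted higher. Cd3e had 389, 337 and 325 CPM in labelled knockout libraries and 405, 394 and 410 CPM in wildtype (fold 0.869; edgeR adjusted p = 0.397), and Cd3g had a fold of 0.993. Of the 5 tested genes in the list of receptor chains and butyrophilin-like ligands 1 was fitted higher. Skint1, a thymic epithelial gene that selects skin-homing gamma delta cells in mice, had at most 0.0287 CPM in the labelled knockout and 0.0168 CPM in wildtype, and it and 4 Btnl genes were below the filter. Of the 10 genes of the alpha beta receptor and its assembly 2 were fitted higher and 8 lower (median log2 fold change -0.16). Of these 10, 5 lay lower without overlap, where 9.38% of all tested genes lay so.

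**Figure D5:**
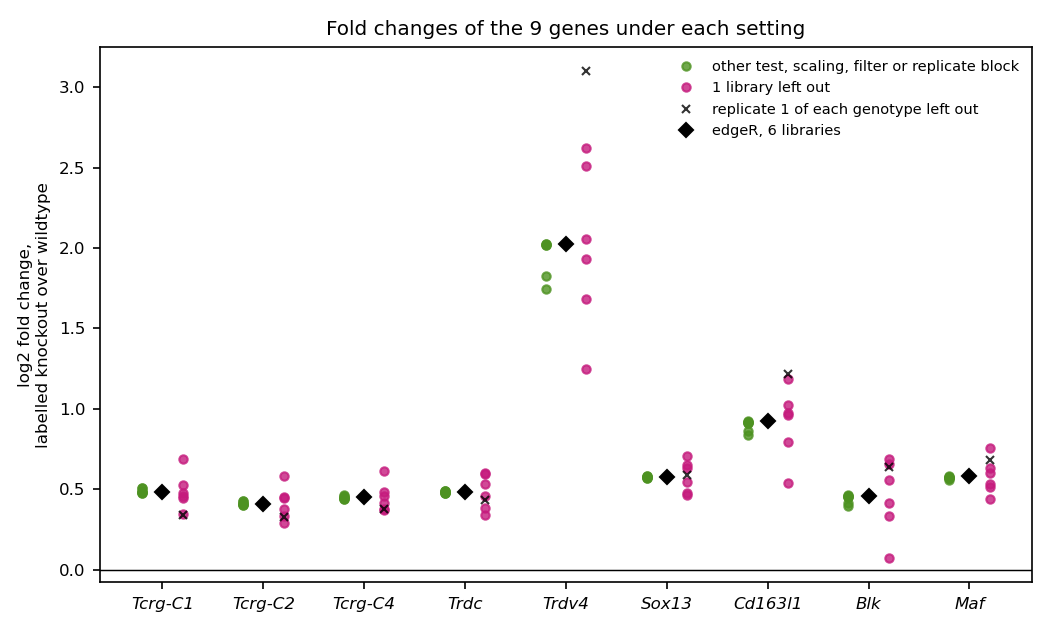
Log2 fold change (labelled knockout over wildtype) of the 9 genes with all 6 libraries in edgeR (diamonds), under another test, scaling, filter or a replicate block (green), with 1 library left out (pink) and without replicate 1 of each genotype (crosses). No value is below 0; Trdv4, Cd163l1 and Blk move most when a library is left out.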

How the data were processed

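RNA of mouse thymocytes was isolated with a column kit and made into stranded, poly(A)-selecting TruSeq libraries, per the labels' protocols. STAR 2.5.4b, featureCounts and the build GRCm38 are named in the submitters' processing notes; they state no annotation release, strand setting or rule for reads with several matches. The deposited values are raw counts per Ensembl gene, per the file headers. All 55536 identifiers matched GENCODE M21, which gave symbols, positions, exon lengths (union of exons) and transcript sequences.

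Genes passing edgeR's filterByExpr at its defaults (18690) were TMM-scaled and compared between 3 labelled knockout and 3 wildtype libraries with edgeR 4.0.16 (glmQLFit, robust, and glmQLFTest; R 4.3.3), Benjamini-Hochberg adjusted over all tested genes, threshold 0.05. All 9 genes passed the filter. Intervals are 95%, with standard errors derived from each gene's test statistic. The fit was tested on simulated data. Alternatives were DESeq2 1.42.0, limma-voom (limma 3.58.1), 2 scalings, 2 filters, a replicate block and omitted libraries. Named genes are the 9 genes, locus segments with at least 10 counts, and, in each of 8 gene lists and 9 marker lists, up to 4 genes of smallest p and those without overlap. Fold values of further list genes (Id3, Etv5, Il23r, 5830411N06Rik, Il17a, Il17f, Tbx21, Eomes, Cd3g and Skint1) were added after their values were seen. The members and lists were chosen with earlier results of these data known. Reads carry no molecular identifiers, so floors cover counting error only. P-values measure the spread between these mice. Some results are not reported here.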

Additional observations from a re-analysis of the deposited data

How the results depend on the processing

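The 9 genes kept a positive fold in every one of 14 alternative fits, except that Trdv4 was not tested with at least 1 CPM in 3 libraries. Calls varied more. The number of the 9 genes with an adjusted p under 0.05 was 0 by edgeR, 1 by DESeq2, 6 without the low-count filter (Sox13, Cd163l1, Trdc, Tcrg-C1, Tcrg-C2 and Tcrg-C4), 3 without replicate 1 of each genotype, and 0 to 1 with 1 library left out. Over all genes, calls numbered 17 by edgeR, 581 by DESeq2 (389 higher, 192 lower), 840 without the filter (531 higher, 309 lower), 762 without replicate 1 of each genotype (394 higher, 368 lower), 9 with the replicate block, and 8 (without wildtype replicate 2) to 29 (without labelled knockout replicate 1). The cause of these changes was not tested. The labels give no pairing of equal replicate numbers, and deviations from the group means correlated at -0.07, 0.11 and -0.12 in the 3 same-numbered pairs, so the replicate block, which called 0 of the 9 genes, rests on numbers alone. The difference in Trdc counts per 1000 Trac counts was 178 and ranged from 132 to 227 with 1 library left out (139 without replicate 1 of each genotype). Depth limits Trdv4 and Tcrg-V6, with 10 or fewer counts in some wildtype libraries, and the genes below the filter.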
